A study of Homo sapiens with 12 samples.

Results

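H/ACA small nucleolar RNAs (symbols starting with SNORA) and Cajal body small RNAs (symbols starting with SCARNA) were followed in HCT116, an established line from a human colon carcinoma. All listed genes whose GENCODE v29 symbol starts with SNORA or SCARNA were taken, which gave 104 of the 16676 listed genes: 86 SNORA and 18 SCARNA entries. GENCODE v29 holds 172 such genes. Their values come from 12 libraries of total RNA in 6 groups of 2 replicates, named a and b. The groups were wild-type cells with doxorubicin (WT dox), wild-type cells in regular medium (WT control), SPARCLE knockout cells with doxorubicin (KO dox) and in regular medium (KO control), and SPARCLE over-expressing cells with doxorubicin (OE dox) and in regular medium (OE control). Doxorubicin, an anthracycline drug that damages DNA through topoisomerase II, was given at 1 µM for 48 h; SPARCLE is a long non-coding RNA described as induced by p53. All cells were grown in DMEM with 10% fetal bovine serum. The labels name no clone, vector or guide. The p-values rest on the spread within pairs of replicates, pooled over the 6 groups, and on a spread shared with other genes. Any spread between clones beyond that is not measured.

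H/ACA RNAs fold into hairpins joined by a hinge that carries the H box, and end in a tail with the ACA box. Each binds dyskerin (DKC1), NOP10, NHP2 and GAR1, pairs with a target RNA and directs the change of a chosen uridine into pseudouridine. Those of the nucleolus act mainly on ribosomal RNA, while those of Cajal bodies act on spliceosomal small nuclear RNAs and may carry C/D boxes, which guide ribose methylation, instead of or beside the H/ACA boxes. Most human members are cut from introns of host genes, many of which encode ribosomal proteins, translation factors or nucleolar proteins.

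The sequences shown are those with the largest called difference each way in each kind of cell (SNORA2B, SNORA31, SNORA4 and SCARNA4), and SNORA26, SNORA5A and SCARNA2, called in all 3 kinds. SNORA2C and SNORA5C are close relatives in the same hosts, and SCARNA10 is the most abundant Cajal body RNA. They come from the GENCODE v29 transcripts on GRCh38, are written 5′ to 3′ as DNA, and are given on the strand of the gene. In the first 8, capitals mark the run ANANNA nearest the middle, where an H box lies, and the ACA that ends 2 to 4 bases before the 3′ end. SCARNA2 (420 bases) and SCARNA10 (330 bases) are shown by their ends, where capitals mark TGATGA, the core of a C box, and CTGA within the last 20 bases, the letters of a D box.
SNORA2B (chr12:48667457-48667593, minus strand): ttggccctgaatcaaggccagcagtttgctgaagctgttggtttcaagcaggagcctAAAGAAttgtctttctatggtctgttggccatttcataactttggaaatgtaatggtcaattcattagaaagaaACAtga
SNORA2C (chr12:48654382-48654518, minus strand): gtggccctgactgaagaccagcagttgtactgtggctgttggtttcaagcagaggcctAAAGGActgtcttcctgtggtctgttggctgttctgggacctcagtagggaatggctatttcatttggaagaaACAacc
SNORA5A (chr7:45104349-45104482, minus strand): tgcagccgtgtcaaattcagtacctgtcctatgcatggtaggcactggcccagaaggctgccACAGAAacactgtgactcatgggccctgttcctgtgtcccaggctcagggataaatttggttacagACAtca
SNORA5C (chr7:45104906-45105042, minus strand): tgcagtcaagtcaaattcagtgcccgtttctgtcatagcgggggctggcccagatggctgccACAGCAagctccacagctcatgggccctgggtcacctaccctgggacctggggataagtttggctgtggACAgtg
SNORA26 (chr4:52713249-52713370, plus strand): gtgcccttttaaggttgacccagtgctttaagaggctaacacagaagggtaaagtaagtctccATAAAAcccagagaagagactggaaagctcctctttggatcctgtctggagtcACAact
SNORA31 (chr13:45337480-45337609, minus strand): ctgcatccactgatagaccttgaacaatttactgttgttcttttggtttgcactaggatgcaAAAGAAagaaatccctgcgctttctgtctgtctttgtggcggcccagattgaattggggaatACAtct
SNORA4 (chr3:186787612-186787749, plus strand): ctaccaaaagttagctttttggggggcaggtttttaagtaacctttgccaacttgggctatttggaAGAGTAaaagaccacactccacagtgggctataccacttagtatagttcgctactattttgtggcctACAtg
SCARNA4 (chr1:155925958-155926086, minus strand): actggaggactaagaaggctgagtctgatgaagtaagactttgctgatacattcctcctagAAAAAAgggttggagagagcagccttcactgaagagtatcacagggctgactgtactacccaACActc
SCARNA2, 3′ end (chr1:109100513-109100612, plus strand): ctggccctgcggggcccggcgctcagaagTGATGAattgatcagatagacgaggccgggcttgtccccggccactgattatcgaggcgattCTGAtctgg
SCARNA10, 5′ end (chr12:6510222-6510281, plus strand): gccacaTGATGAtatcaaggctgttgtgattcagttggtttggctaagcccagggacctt
SCARNA10, 3′ end (chr12:6510492-6510551, plus strand): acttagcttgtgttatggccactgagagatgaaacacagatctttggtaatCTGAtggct
SNORA2B and SNORA2C lie in introns of KANSL2 and share 73.9% of aligned positions. SNORA5A and SNORA5C lie in introns of TBRG4 and share 68.1%. Among all 86 SNORA sequences, ACA stood exactly 3 bases before the end in 66 (76.7%) and 2 to 4 bases before it in 75 (87.2%). In 2857 other GENCODE transcripts of 120 to 210 bases, the same was found in 6.72% and 10.6%. ANANNA within 40 to 60% of the length was found in 78 SNORA sequences (90.7%), against 47.8% of the other transcripts. Of the 18 SCARNA sequences, 10 had ACA 3 bases before the end and 10 held TGATGA, which 8.51% of the other transcripts held. TGATGA was searched over the whole length, and most SCARNA sequences that held it are longer than 210 bases, which gives more room for a match. Both counts hold SCARNA4 under each of its 2 identifiers. Only the strand of the RNA was searched, and a match is no proof of a box.

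The members spanned a wide range of levels, given in TPM, a share of the transcripts in a library after scaling by gene length. Of the 104, 4 averaged at least 1000 TPM, 30 lay between 100 and 1000, 62 between 10 and 100, and 8 under 10, with a median of 46.8 TPM. SNORA73A and SNORA73B, the U17 RNAs needed for processing of small-subunit ribosomal RNA, were the most abundant at 6070 and 4182 TPM, and held 34.8 to 48.0% of the members' TPM in a library. SCARNA10, also called U85, which guides modification of U5 small nuclear RNA, followed at 1407 TPM. SNORA63 averaged 1041 TPM and SCARNA2, a guide for methylation of U2 small nuclear RNA, 952 TPM. SCARNA12, SNORA48, SCARNA7, SNORA53 and SCARNA5 lay between 497 and 883 TPM. Together the members took 2.02 to 3.55% of a library's TPM. SNORA73A varied least across the 12 libraries, with a highest level 1.39 times the lowest, and SNORA80B varied most, with a highest level 18 times the lowest. All 104 passed the expression filter of at least 1 TPM in at least 2 libraries. Reads recovered from the TPM ranged from 37838 to 154636 per library over the members, and 18 members had fewer than 10 reads in their lowest library. The symbols SCARNA4, SNORA16A, SNORA17B and SNORA50A appear with 2 identifiers at the same place, so the 104 entries stand for 100 loci.

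Facts of the whole series bear on these values. SPARCLE (listed under its RefSeq gene number, symbol MIR34BHG) stood at 13.7 and 13.5 TPM in OE dox and at 26.5 and 27.3 TPM in OE control. In the 8 WT and KO libraries it lay between 0.00873 and 0.145 TPM, so a loss in KO cells was not detectable at this depth. The epithelial genes EPCAM, KRT8, KRT18 and CDH1 were present in all 12 libraries. CDX2, also on the list of 5 colon epithelium genes, passed the filter of at least 1 TPM in at least 2 libraries. Reads on genes with recovered counts ranged from 9344649 in OE control a to 22873131 in KO dox b. The libraries KO dox b, OE dox b and OE control b stood apart in small RNA: C/D box RNAs (SNORD genes) summed to 15930 TPM in KO dox b, 18406 TPM in OE dox b and 13932 TPM in OE control b, against 6244 to 9186 TPM in the other 9.

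In KO dox, OE dox, OE control and KO control the median difference between replicates was larger for short members, as the plot of replicate differences by length shows. In WT control it was of like size and direction for short and longer members. In WT dox it was of like size but opposite direction, with b higher in short members and lower in longer ones. Among the 83 members of at most 150 bases, the level in replicate b was 1.93 times that in a (median) in KO dox, with 41 members over 2 times, and 1.49 times in OE dox, 1.33 times in OE control and 1.38 times in KO control. It was 1.14 times in WT dox and 0.693 times in WT control. Among the 21 longer members the medians were 1.20 in KO dox, 1.38 in OE dox, 0.928 in OE control, 0.998 in KO control, 0.870 in WT dox and 0.706 in WT control, and in none of these 21 was b over 2 times a. In this longer class a was over 2 times b for 1 member in KO dox (SCARNA2) and 1 in WT control (SNORA53). SNORA80B, the most variable member (named after its values were seen), had 75 and 499 TPM in KO dox, 27.7 and 76.0 TPM in KO control, 110 and 345 TPM in OE dox, and 50.3 and 271 TPM in OE control. SNORA63 likewise had 619 and 2202 TPM in KO dox and 804 and 917 TPM in KO control. The highest library of a member was KO dox b for 40 members and OE dox b for 21. A second view scales each library to the same summed TPM of SNORD, SNORA and SCARNA genes; it is given beside the first as the rescaled view.

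**Figure D1:**
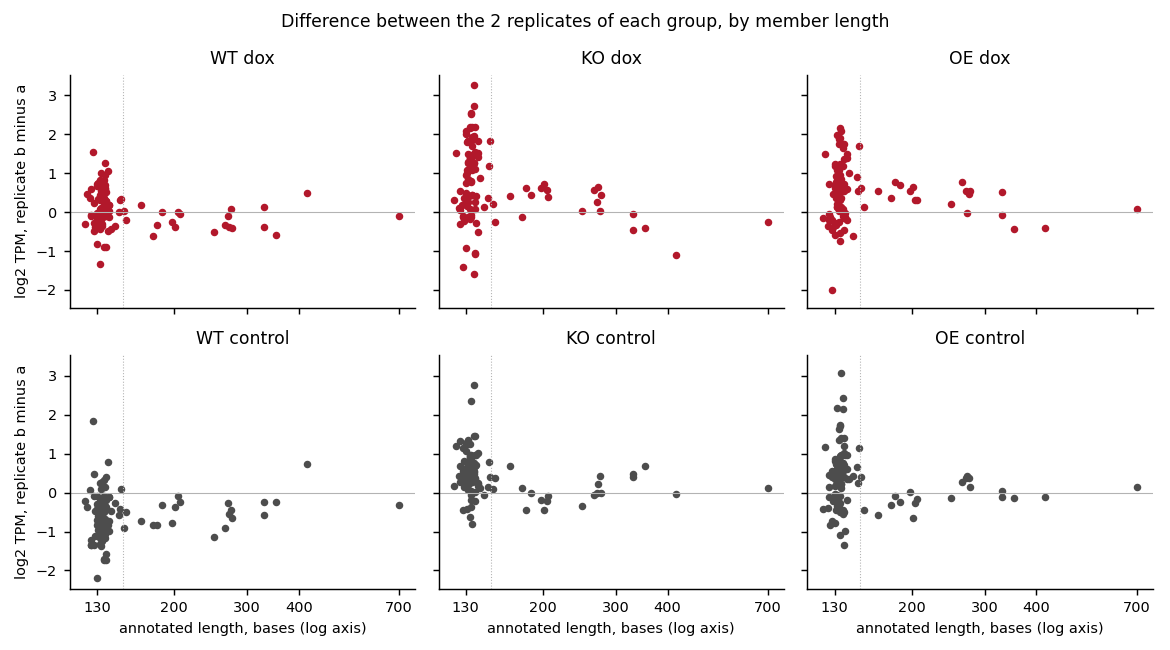
Difference between the replicates of each group (log2 TPM, b minus a, y axis) against the annotated length of each of the 104 members (bases, log axis), one panel per group, dox above control. Dots left of the dotted line at 150 bases scatter upward in KO dox (median ratio 1.93) and OE dox (1.49), while none of the 21 longer members is over 2 times higher in b than in a in any group; 1 in KO dox (SCARNA2) and 1 in WT control (SNORA53) lie over 2 times lower in b.

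Doxorubicin against regular medium was compared first in WT cells. Of the 104 members, 7 rose and 8 fell (limma on log2(TPM + 1), adjusted p under 0.05 over 15256 genes), a share of 14.4%, while 32.2% of all genes were called (19.6% higher and 12.6% lower). The members' median log2 difference was 0.00 (SNORA 0.01, SCARNA -0.30), against 0.17 over all genes. The risers were SNORA2B, SNORA5A, SNORA26, SNORA75, SNORA5C, SCARNA2 and SCARNA16, and those that fell were SNORA31, SNORA4, SCARNA18, SNORA41, SNORA66, SNORA21B, SCARNA9 and SNORA62. In bulk RNA, fewer cells with an RNA and less of it per cell cannot be told apart. In KO cells, 8 members rose and 1 fell (8.65%, with 24.2% of all genes called, 9.9% higher and 14.3% lower), at a median of 0.43 for the members and -0.01 for all genes. In OE cells, 8 rose and 3 fell (10.6%, with 23.0% of all genes called, 12.4% higher and 10.6% lower), at a median of 0.32 for the members and 0.11 for all genes. Across the 3 kinds of cell 22 members were called at least once, 5 in all 3, and none in opposite directions, while 82 were never called. In all 3 comparisons 48 members had a positive difference and 22 a negative one, while 34 had differences of both signs. The C/D box RNAs of the same libraries (54 SNORD genes) had 3 risers and 7 falls in WT cells (median -0.20), 3 and 2 in KO cells (0.20), and 4 and 2 in OE cells (0.16). Groups did not overlap for 18 higher and 21 lower members in WT cells (44.0 and 28.5% of all genes), 31 and 11 in KO cells (28.3 and 33.8%) and 27 and 12 in OE cells (34.2 and 27.0%). Leaving out a library of a compared group leaves that group with 1 library, which is then assumed to vary like the other groups. Under this check the WT count was 7 without WT dox a (15.3% of all genes called), 4 without WT dox b (15.3%) and 4 without WT control a (11.9%). The KO count was 28 without KO dox a (10.3%) and 5 without KO control b (7.65%). The OE count was 6 without OE dox b (24.8%), 6 without OE control a (10.0%) and 2 without OE control b (6.19%).

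**Figure D2:**
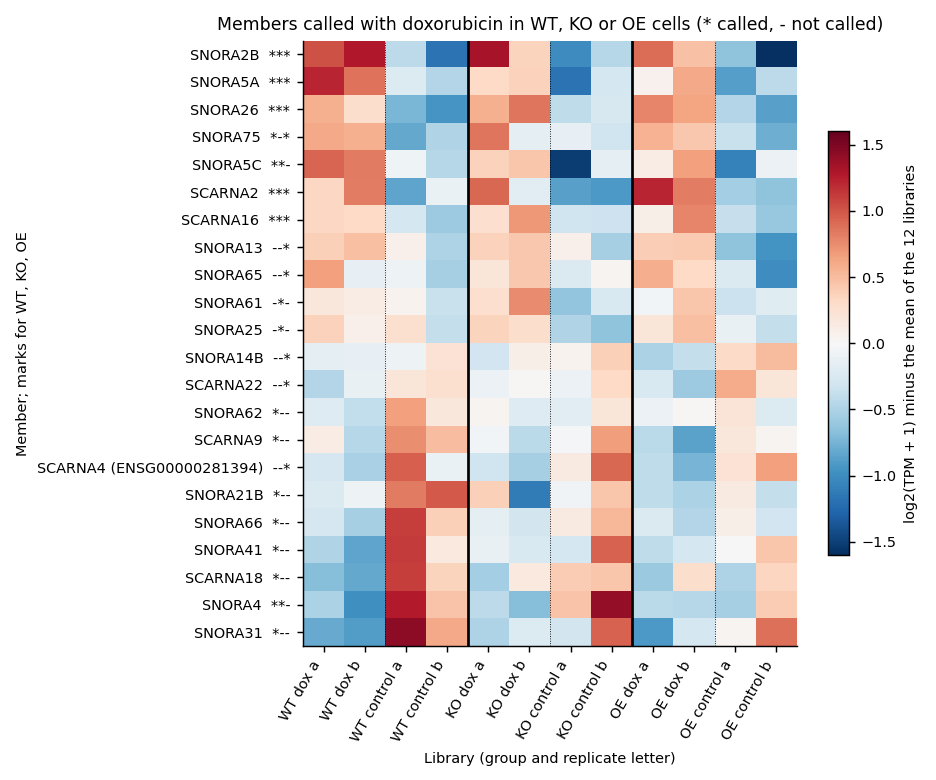
The 22 members called in at least 1 doxorubicin comparison (rows, ordered by the WT difference) in the 12 libraries (columns, dox left of control within WT, KO and OE), coloured by log2(TPM + 1) minus the row mean. Asterisks give the calls in WT, KO and OE in that order; the 5 rows with 3 asterisks (SNORA2B, SNORA5A, SNORA26, SCARNA2, SCARNA16) lie above their row mean in the dox libraries of each kind of cell, except SCARNA2 in KO dox b.

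The 5 members called in all 3 kinds of cell were all higher with doxorubicin. SNORA2B, an H/ACA RNA in an intron of KANSL2 (a subunit gene of a histone acetyltransferase complex), was at 15.7 and 19.0 TPM in WT dox, against 5.20 and 2.65 TPM in WT control. It was at 19.6 and 9.55 TPM in KO dox, against 3.11 and 5.0 TPM in KO control, and at 14.3 and 10.4 TPM in OE dox, against 4.26 and 1.68 TPM in OE control. All dox libraries thus lay above all control libraries. The log2 differences were 1.94 ± 0.40 in WT, 1.57 ± 0.40 in KO and 1.81 ± 0.40 in OE cells (SE; limma adjusted p = 0.00404, 0.0156 and 0.00866), the largest called rise in each kind of cell. Only 3 to 9 reads lay behind its control levels, against 29 to 49 behind its dox levels. The KO call was lost without KO dox a (adjusted p = 0.127) or KO control a (0.0793), and the OE call without OE dox a (0.0571) or OE control b (0.105). SNORA2C, its relative in another intron of the same host, was called in none of the 3, with 48.3 and 59.2 TPM in WT dox and 51.1 and 39.8 TPM in WT control.

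SNORA26, in an intron of the long non-coding RNA gene DANCR, was at 45.5 and 37.0 TPM in WT dox, against 17.9 and 15.3 TPM in WT control. It was at 45.2 and 55.6 TPM in KO dox, against 22.6 and 25.2 TPM in KO control. In OE dox it was at 52.7 and 47.5 TPM, against 21.6 and 16.1 TPM in OE control. Its dox and control libraries were well apart in each kind of cell. The log2 differences were 1.26 ± 0.22, 1.04 ± 0.22 and 1.38 ± 0.22 (SE; limma adjusted p = 0.00164, 0.00611 and 0.00159 in WT, KO and OE cells). These 3 calls were kept whichever single library was left out.

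SNORA5A and SNORA5C, in neighbouring introns of TBRG4 (a gene for a regulator of mitochondrial RNA), both rose in WT and KO cells. SNORA5A was at 117 and 91.6 TPM in WT dox and at 42.4 and 35.5 TPM in WT control, at 62.3 and 64.6 TPM in KO dox and at 21.3 and 40.8 TPM in KO control, and at 52.2 and 76.1 TPM in OE dox and at 26.4 and 36.8 TPM in OE control. Its differences were 1.39, 1.08 and 0.99 (SE 0.30 each; limma adjusted p = 0.0045, 0.0210 and 0.0309). SNORA5C was at 70.3 and 65.4 TPM in WT dox and at 34.6 and 26.3 TPM in WT control, with differences of 1.14 in WT and 1.23 in KO cells. Its OE difference of 0.98 was not called. The groups of both RNAs did not overlap in WT, KO or OE cells. The WT call of SNORA5A was kept without any single library, while its KO call was lost without KO dox a (adjusted p = 0.0613), KO dox b (0.0509) or KO control a (0.154). Its OE call was lost without OE dox b (0.136), OE control a (0.178) or OE control b (0.0641). SNORA5C lost its WT call without any of the 4 WT libraries (adjusted p = 0.0995 to 0.177), and its KO call without KO dox a (0.0927), KO dox b (0.0818), KO control a (0.311), WT dox a (0.0605) or WT dox b (0.0605).

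SCARNA2 and SCARNA16 were the Cajal body RNAs that rose. SCARNA2 was at 1048 and 1460 TPM in WT dox, against 462 and 768 TPM in WT control. It was at 1564 and 728 TPM in KO dox, against 452 and 438 TPM in KO control, and at 1938 and 1464 TPM in OE dox, against 570 and 529 TPM in OE control. KO dox b was the lowest dox library and still lay above both KO control libraries. The differences were 1.05 ± 0.34, 1.26 ± 0.34 and 1.61 ± 0.34 (SE; limma adjusted p = 0.0302, 0.0181 and 0.00608). The OE call was kept without any single library. The WT call was lost without WT dox a (adjusted p = 0.0586), WT dox b (0.191) or WT control a (0.252), and the KO call without KO dox a (0.166) or KO control b (0.0922). SCARNA2 lies within an exon of the long non-coding AL356488.2, which stood at 940 TPM and moved by the same amounts, and the reads of these 2 entries cannot be told apart. SCARNA16, in an exon of SNHG20, was at 191 and 190 TPM in WT dox, against 125 and 101 TPM in WT control, at 184 and 247 TPM in KO dox, against 122 and 120 TPM in KO control, and at 162 and 263 TPM in OE dox, against 117 and 99.8 TPM in OE control. Its differences of 0.76, 0.81 and 0.92 (SE 0.24 each) were the smallest of the 5. Its WT call was lost without any of the 4 WT libraries (adjusted p = 0.0689 to 0.154). Its KO call was lost without KO dox b (0.158), KO control a (0.0757) or KO control b (0.129), and its OE call without OE dox b (0.102) or OE control b (0.133).

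**Figure D3:**
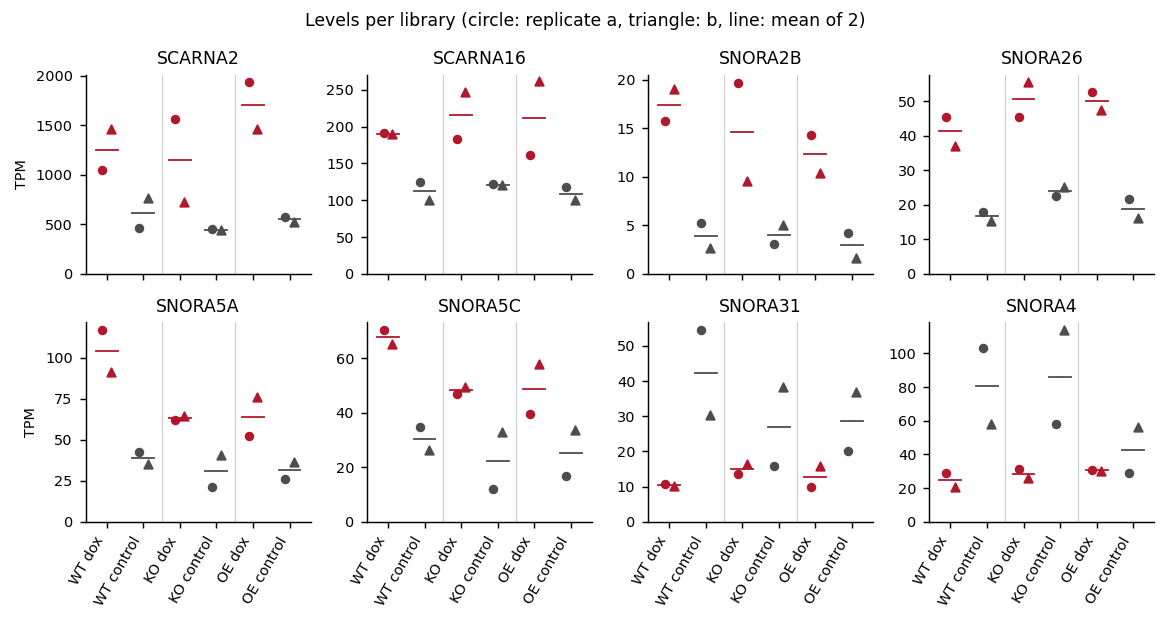
Levels of 8 members in TPM (y axis, from 0) in each group, dox (red) left of control (grey), with replicate a as a circle, b as a triangle and the mean as a line. In the upper row and in SNORA5A and SNORA5C, dox libraries lie above control libraries in each kind of cell; in SNORA31 and SNORA4 they lie below them in WT cells.

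The largest falls were those of SNORA31 and SNORA4. SNORA31, an H/ACA RNA in TPT1 whose variants have been linked to herpes simplex encephalitis, was at 10.8 and 10.1 TPM in WT dox, against 54.4 and 30.4 TPM in WT control and fell in WT cells (-1.87 ± 0.41 on the log2 scale, ± SE, limma adjusted p = 0.00514). In KO dox it was at 13.6 and 16.6 TPM, against 15.8 and 38.3 TPM in KO control, and in OE dox at 9.84 and 15.8 TPM, against 20.2 and 36.8 TPM in OE control. The KO groups overlapped and the OE groups did not, but neither difference (-0.68 and -1.07) was called. The WT call was lost only without WT control a (adjusted p = 0.068). SNORA4 touches an exon of EIF4A2, a gene for a translation initiation helicase, so host reads may be among its own. SNORA4 was at 29.3 and 20.9 TPM in WT dox, against 103 and 57.9 TPM in WT control. It was at 31.3 and 25.9 TPM in KO dox, against 58.2 and 114 TPM in KO control, and at 31.0 and 30.4 TPM in OE dox, against 28.9 and 56.1 TPM in OE control. It fell in WT (-1.6 ± 0.37, limma adjusted p = 0.00673) and KO cells (-1.48 ± 0.37, 0.0137), while the OE groups overlapped (-0.38). The WT call was lost without WT dox b (adjusted p = 0.0658) or WT control a (0.0862), and the KO call without KO control b (0.145).

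A further 13 members were called in 1 kind of cell, and SNORA75 in 2. SNORA75, in an intron of the nucleolin gene NCL, was at 15.7 and 15.3 TPM in WT dox, against 5.20 and 6.87 TPM in WT control, and rose in WT (1.24) and OE (1.06) cells. Its WT call was lost without WT dox a, WT dox b or WT control a (limma adjusted p = 0.0552 to 0.0921), and its OE call without any of the 4 OE libraries (0.0504 to 0.207). In WT cells, SCARNA18 (-1.48), SNORA41 (-1.30), SNORA66 (-1.14), SNORA21B (-1.06), SCARNA9 (-0.78) and SNORA62 (-0.72) fell. SCARNA9, a guide for U2 small nuclear RNA, was at 120 and 79.8 TPM in WT dox, against 185 and 155 TPM in WT control. SNORA21B, in an intron of the ribosomal protein gene RPL23, was at 18.6 and 20.8 TPM in WT dox, against 40.03 and 44.3 TPM in WT control. The WT groups did not overlap for any of the 6. Each of these 6 calls was lost without WT dox b and also without WT control a. The adjusted p without WT control a was 0.12 for SCARNA18, 0.24 for SNORA41, 0.119 for SNORA66, 0.141 for SNORA21B, 0.219 for SCARNA9 and 0.313 for SNORA62. Without WT dox b it was 0.0679, 0.139, 0.0695, 0.128, 0.294 and 0.187 in the same order. SNORA41, SNORA62 and SCARNA18 were also lost without WT dox a, SCARNA9 without WT control b, SNORA21B without WT dox a or WT control b, SCARNA9 and SNORA62 without OE control a or b, and SNORA21B without any of the 4 OE libraries (adjusted p = 0.0502 to 0.185).

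In KO cells, SNORA61 (0.95) and SNORA25 (0.88) rose beside the members already named. SNORA25, in TAF1D, was at 44.0 and 42.0 TPM in KO dox, against 24.4 and 21.5 TPM in KO control. SNORA61, in SNHG12, was at 125 and 177 TPM in KO dox, against 66.5 and 87.6 TPM in KO control. SNORA61 lost its call without KO dox b (limma adjusted p = 0.0968) or KO control a (0.0869), and SNORA25 without KO dox a (0.0928) or KO control b (0.129). In OE cells, SNORA13 (1.21) and SNORA65 (1.07) rose, and SCARNA4 (-1.03, under the identifier ENSG00000281394), SNORA14B (-0.86) and SCARNA22 (-0.80) fell. SNORA13 was at 36.5 and 37.0 TPM in OE dox, against 17.2 and 13.7 TPM in OE control. SCARNA4 was at 11.5 and 8.92 TPM in OE dox, against 18.6 and 25.3 TPM in OE control, and its second entry at the same place (ENSG00000280466) had a difference of -0.75 without a call. SCARNA22, an H/ACA RNA in the histone methyltransferase gene NSD2, was at 73.2 and 57.6 TPM in OE dox, against 131 and 99.6 TPM in OE control. Without OE control b, the call was lost for all 5: SNORA13 (adjusted p = 0.0739), SNORA65 (0.239), SCARNA4 (0.265), SNORA14B (0.152) and SCARNA22 (0.0519). SNORA65 also lost it without OE dox a (0.124), SNORA14B without OE dox a (0.0788) or OE control a (0.0615), SCARNA22 without OE dox b (0.0939) or OE control a (0.166), and SCARNA4 without any other OE library or either WT dox library (0.0677 to 0.15). SNORA66 and SNORA13 lie antisense to an annotated gene, and the strand setting of the counts is not given in the sources used here. Of the 35 calls in all 3 kinds of cell, 6 were kept whichever single library was left out and 29 were lost without at least 1.

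Most of the most abundant members did not pass the test. Of the 10 highest, only SCARNA2 was called. SNORA73A was at 5976 and 5806 TPM in WT dox, against 6164 and 5248 TPM in WT control, and its differences were 0.05, 0.04 and 0.17 in WT, KO and OE cells (SE 0.23), or 0.06, -0.37 and -0.11 rescaled. SNORA73B, with 93.2% of positions shared with SNORA73A, differed by -0.02, 0.19 and 0.05, or -0.02, -0.22 and -0.23 rescaled. SCARNA10 was at 1229 and 1339 TPM in WT dox, against 1880 and 1589 TPM in WT control, without overlap and without a call (-0.43 ± 0.23, limma adjusted p = 0.159), and differed by -0.35 in KO and -0.18 in OE cells. SNORA63 and SNORA48 differed by -0.06 and 0.18 in WT cells, with SE of 0.52 and 0.48.

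In the rescaled view fewer members were called, and so were fewer genes. In WT cells 1 rose and 2 fell, with 8.52% of all genes called (5.47% higher and 3.05% lower). In KO cells 1 rose and 2 fell, with 6.59% of all genes called (1.4% higher and 5.19% lower). In OE cells limma called 0, with 9 members at an unadjusted p under 0.05, while 3.95% of all genes were called (1.65% higher and 2.3% lower). Voom on recovered reads, which uses neither the deposited nor the rescaled TPM, called 6 in OE cells. Of the 35 calls, 4 held in both views: SNORA2B (1.98 ± 0.58, limma adjusted p = 0.0147), SNORA31 (-1.87 ± 0.56, 0.0171) and SNORA4 (-1.6 ± 0.54, 0.0401) in WT cells, and SNORA4 in KO cells (-1.87 ± 0.54, 0.0146). The WT differences hardly moved (SNORA26 had 1.27 against 1.26), while their SE grew (0.55 against 0.22). The median of the members was 0.04 in KO and 0.04 in OE cells, against 0.43 and 0.32 as deposited, and that of all genes was -0.33 and -0.10, against -0.01 and 0.11. With the rescaling 55 of 104 members were above 0 in KO cells, against 78 as deposited. This shift is partly built into the rescaling, because the members are a large part of the sum held equal. In KO dox b they held 35531.5 of its 51461 TPM. Other scalings changed the split of the calls: median-ratio scaling called 4 higher and 9 lower among WT libraries, 4 higher and 2 lower among KO libraries, and 6 higher and 4 lower among OE libraries. Voom on recovered reads called 4 higher and 7 lower, 3 higher and 1 lower, and 4 higher and 2 lower for the same kinds of cell. The share of all genes called is not given for median-ratio scaling or voom, so these counts are no result on the members. As a share of the summed TPM of SNORD, SNORA and SCARNA genes, SNORA4 made up 0.0957 and 0.0690% in WT dox, against 0.295 and 0.217% in WT control, and 0.105 and 0.0504% in KO dox, against 0.205 and 0.369% in KO control. SNORA80B (higher, 1.65 ± 0.52, limma adjusted p = 0.0283) and SNORA19 (lower, -1.77 ± 0.57, 0.0362) were called in KO cells in the rescaled view only. Both were named after their values were seen. As deposited, SNORA80B differed by 2.05 ± 0.89, and its KO dox replicates lay 2.73 apart on the log2 scale. The SE of the fit is drawn towards a spread shared with other genes, so this call of the most variable member is weak. SNORA19 was at 13.3 and 5.0 TPM in KO dox, against 16.0 and 35.2 TPM in KO control. Without the 3 libraries rich in SNORD RNA (KO dox b, OE dox b and OE control b, chosen after the data were seen), 18 members were called in WT, 9 in KO and 3 in OE cells, and in the rescaled view 18, 6 and 1. With this, 1 library was left in KO dox, OE dox and OE control. The share of all genes called without the 3 libraries is not given, so these counts are no result on the members either.

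**Figure D4:**
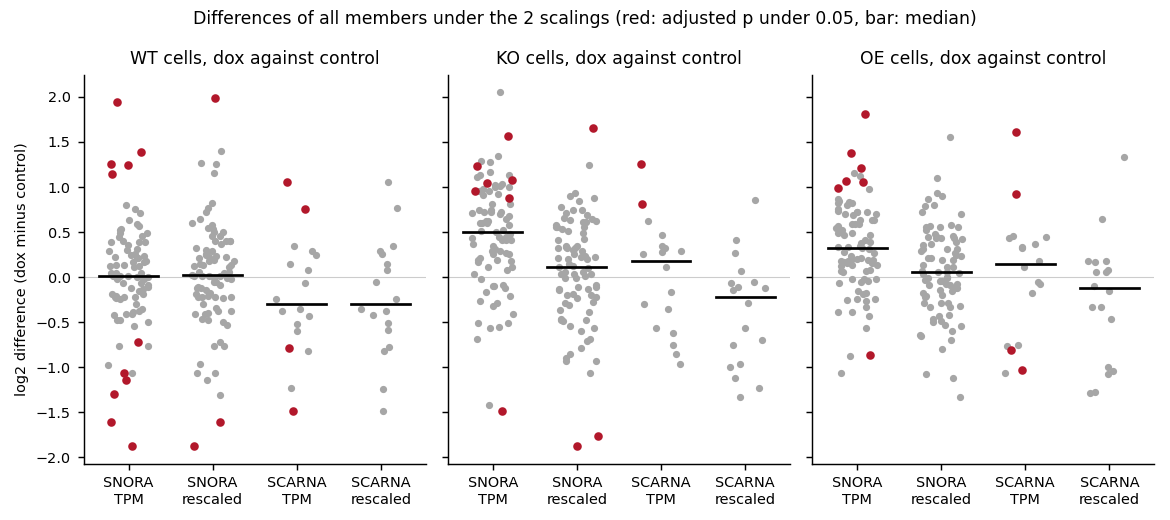
Log2 difference of every member, dox minus control (y axis), by family and scaling (x axis), in WT, KO and OE cells; red dots passed an adjusted p of 0.05 and bars are medians. The KO median of the SNORA members is 0.50 as deposited and 0.11 rescaled, and the number of red dots falls to 3, 3 and 0 when rescaled. The shift of the median is partly built into the rescaling, which holds equal a sum that includes the members.

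Knockout and over-expressing cells were next set against WT cells in each medium. No member was called in these 4 comparisons by limma, as deposited or rescaled. The share of all genes called was 0.0918% for KO against WT control, 0.118% for OE against WT control, 0.295% for KO against WT dox and 0.315% for OE against WT dox, or 0.157, 0.111, 0.184 and 0.288% rescaled. At an unadjusted p under 0.05 there were 1, 7, 1 and 5 members, and voom on recovered reads called 0 in each. The smallest p belonged to SNORA26 in KO against WT control (0.50 ± 0.22), SNORA66 in OE against WT control (-0.85 ± 0.28), and SNORA5A in both dox comparisons (-0.70 ± 0.30 in KO and -0.70 ± 0.30 in OE). SNORA5A had 62.3 and 64.6 TPM in KO dox and 52.2 and 76.1 TPM in OE dox, against 117 and 91.6 TPM in WT dox, and these groups did not overlap. SNORA25 (-0.50) and SNORA21B (-0.72) came next in KO against WT control, SNORA21B (-1.03) and SNORA33 (-0.72) in OE against WT control, SNORA8 (0.96) and SNORA18 (0.87) in KO against WT dox, and SNORA50C (0.95) and SNORA21 (0.79) in OE against WT dox. The dox comparisons share their WT dox libraries. Whether the doxorubicin difference itself depended on the kind of cell was tested by interaction terms, which called 0 members in KO and 0 in OE cells (0.00655% of all genes each, or 0.0131 and 0.0393% rescaled), with 0 and 3 members at an unadjusted p under 0.05 and 0 and 0 by voom. The smallest p belonged to SNORA8 (1.36 ± 0.64), SNORA31 (1.19 ± 0.58) and SNORA61 (0.65 ± 0.35) for KO, and to SCARNA18 (1.40 ± 0.53), SNORA4 (1.22 ± 0.52) and SNORA66 (0.90 ± 0.39) for OE.

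The members were then set beside their host genes. A host on the same strand contains 103 of the 104 (SNORA11F has none), and these hosts are 75 distinct genes. By place, 59 members lie in an intron of the host and 44 wholly or partly in an exon; by type, 75 lie in protein-coding and 28 in non-coding hosts. For 102 members the host is listed too, and the ratio of member to host TPM had a median of 1.00 and ran from 0.0290 (SNORA66 in RPL5) to 155. It was over 10 for 19 members and under 0.1 for 9. Where a member overlaps an exon or an unspliced host RNA, its reads and those of the host cannot be told apart. Over the 101 members with a tested host, the log2 differences of member and host had a Pearson r of 0.42 in WT, 0.44 in KO and 0.41 in OE cells. This is a description across members that share 73 hosts and the same libraries. Of the 101, 71 had the sign of their host in WT, 61 in KO and 65 in OE cells, and the host was called for 44, 31 and 32. Called members had the sign of their host in 14 of 15 cases in WT, 8 of 9 in KO and 10 of 11 in OE cells. The host itself was called the same way in 10, 3 and 3. For the 57 members in an intron r was 0.36, 0.53 and 0.38, against 0.53, 0.38 and 0.51 for the 44 touching an exon. Among called members in an intron the host was called the same way in 4 of 8, 0 of 4 and 1 of 9 cases. Among those touching an exon, where reads can be shared, it was so in 6 of 7, 3 of 5 and 2 of 2.

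TBRG4, the host of SNORA5A and SNORA5C, rose as well in WT cells (34.1 TPM in WT dox, against 16.3 TPM in WT control; 1.03 ± 0.23, limma adjusted p = 0.00623) and was not called in KO (0.50) or OE (0.54) cells. TPT1 and EIF4A2, the hosts of SNORA31 and SNORA4, fell in WT, KO and OE cells alike by the test. Their log2 differences were -0.91, -1.01 and -0.93 for TPT1 and -0.99, -1.02 and -0.78 for EIF4A2. SNORA63 and SNORA81, which also lie in EIF4A2, were not called in any kind of cell (WT differences -0.06 and -0.24), beside the -1.6 of SNORA4. SNORA4 touches an exon of EIF4A2 and averaged 48.9 TPM, against 204 TPM for EIF4A2 and 1041 TPM for SNORA63. Its reads and those of the host cannot be told apart. Other members differed from their hosts. NCAPD2, a condensin subunit gene that holds SCARNA10, fell to 10.1 TPM in WT dox, against 47.3 TPM in WT control (-2.09 ± 0.25, limma adjusted p = 0.000215), and SCARNA10, at 58.4 times the level of its host, differed by -0.43. RPL12 fell in OE cells (219 TPM in OE dox, against 682 TPM in OE control; -1.63 ± 0.19), while SNORA65 in its intron rose by 1.07. TAF1D differed by -0.64 in KO cells without a call, while SNORA25 rose by 0.88. SNORA40, in the same host and named after its values were seen, had -0.41 in KO cells without a call. Over the 17 members in ribosomal protein genes, the median difference was 0.01 in WT, 0.60 in KO and 0.19 in OE cells, against -0.71, -0.81 and -0.69 for their hosts. Rescaled, the member medians were 0.01, 0.20 and -0.09. The host medians above are as deposited. Rescaling multiplies every gene of a library by the same factor, so the hosts shift with the members. Of these 17, 0 rose and 3 fell in WT, none was called in KO, and 1 rose in OE cells. The 22 members in SNHG genes, non-coding hosts of small nucleolar RNAs, had medians of 0.13, 0.66 and 0.48 (0.14, 0.27 and 0.20 rescaled), with 1, 2 and 1 risers and no falls. The 9 in translation factor genes had medians of -0.24, -0.28 and -0.06 (-0.23, -0.69 and -0.32 rescaled), with 3, 1 and 0 falls and no risers. The 55 in other genes had -0.13, 0.41 and 0.33, with 6 risers each time and 2, 0 and 3 falls. Loci with 2 identifiers count under both. As deposited, limma called 19.6% of all genes higher with doxorubicin and 12.6% lower for WT cells. These shares were 9.9 and 14.3% for KO cells, then 12.4 and 10.6% for OE cells. No class of hosts was tested against these shares, and the calls per class are few, so they are no result on the classes.

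**Figure D5:**
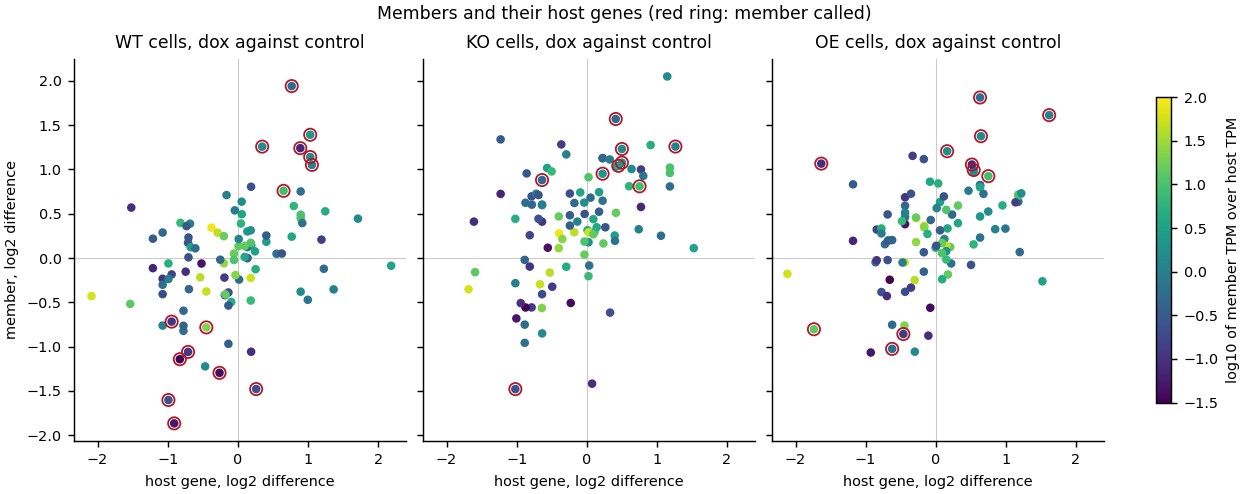
Log2 difference (dox minus control) of each member (y axis) against that of its host gene (x axis) in WT, KO and OE cells, coloured by the log10 ratio of member to host TPM, with called members ringed in red. SCARNA10, with its host NCAPD2 at -2.09 in WT cells, lies at -0.43 on the y axis, and the ringed dot at upper left in OE cells is SNORA65, at 1.07 with its host RPL12 at -1.63.

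Protein and RNA partners of the class were read from a list of 33 genes for the H/ACA core, its assembly, Cajal bodies, 3′ trimming, the C/D core, telomerase and intron processing, of which 32 were tested (TERT was under the filter). In WT cells 8 rose and 3 fell (34.4% of the 32, beside 32.2% of all genes called), in KO cells 5 rose and 4 fell (28.1%, beside 24.2%), and in OE cells 5 rose and 4 fell (28.1%, beside 23.0%). DKC1, the pseudouridine synthase of the particle, was at 55.4 and 47.3 TPM in WT dox, against 20.7 and 29.6 TPM in WT control, and rose in all 3 kinds of cell (1.02, 0.82 and 0.92; SE 0.25). Its partners NOP10, NHP2 and GAR1 were not called, with WT differences of 0.37, 0.40 and 0.50. RUVBL1, a helicase-like ATPase of the assembly complex, was at 45.1 and 43.2 TPM in WT dox, against 8.19 and 12.9 TPM in WT control, and rose by 2.0, 1.55 and 1.53 (SE 0.29). TOE1 and NCBP1, which act in 3′ trimming and cap binding of small RNAs, and NOP56 of the C/D particle rose in all 3 (1.54, 1.59 and 1.19 in WT cells). FBL, the methyltransferase of the C/D particle, fell by 1.17 in WT, by 1.13 in KO and by 1.27 in OE cells on the log2 scale. WRAP53, which brings RNAs with a Cajal body signal to that body, fell in KO (-0.88) and OE (-0.96) cells and had -0.60 in WT cells without a call. Of the 8 Cajal body genes on the list, 1 rose and 2 fell in WT cells. In KO and in OE cells 0 rose and 3 fell. The RUVBL1 calls were kept without any single library. DKC1 lost its WT call without WT dox a (limma adjusted p = 0.0763) or WT control a (0.111), its KO call without KO dox a (0.202), KO control a (0.0661) or KO control b (0.164), and its OE call without OE dox a (0.124) or OE control b (0.186). TOE1, NCBP1 and NOP56 lost their KO calls without KO dox a (0.101, 0.0993 and 0.132) or KO control b (0.0815, 0.183 and 0.0975), and FBL likewise (0.0528 and 0.0718). In OE cells, TOE1 lost its call without OE dox a (0.0741), OE control a (0.055) or OE control b (0.101), and NCBP1 without OE control b (0.061). WRAP53 lost its KO call without any of the 4 KO libraries (0.0568 to 0.152), and its OE call without OE dox b (0.0724), OE control a (0.078) or OE control b (0.127). No gene of the list was called in the other 6 comparisons. TERC, the telomerase RNA, which is itself an H/ACA RNA, differed by 0.14, 0.26 and 0.42 (SE 0.52).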

How the data were processed

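Total RNA was sequenced from 12 libraries of HCT116 cells, extracted with Trizol and prepared with a kit that keeps strand, per the labels' protocols. The authors deposited 1 table of log2 TPM for 16676 genes, with no constant added. Per the submitters' processing notes, the build was hg38 and the tools included edgeR 3.12.1 in R 3.3.3, featureCounts, and SAMtools 1.7 with HISAT2 2.0.4; their order, the annotation, the strand setting and the filter on genes are not given in the sources used here. Symbols, positions and hosts were taken from GENCODE v29 (GRCh38), which held 16564 of the identifiers. The members and lists were chosen with earlier results of these data known.

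Log2 values were turned back into TPM. Genes with at least 1 TPM in at least 2 libraries (15256) were fitted as log2(TPM + 1) with limma 3.58.1 in R 4.3.3, with a mean for each of 6 groups, a trended prior, and Benjamini-Hochberg adjustment over all genes tested. A call is an adjusted p under 0.05, and a fold change on this scale understates that of low genes. Residual degrees of freedom were 6 and prior degrees of freedom 6.97. The rescaled view multiplied each library so that its 158 SNORD, SNORA and SCARNA genes summed to the mean over libraries. For 15172 genes (91.6%), all 104 members included, TPM and annotated length gave whole reads within 0.05 reads (5 genes with lengths shuffled); voom was run on these reads for 13908 genes. The scripts were tested on simulated data for doxorubicin in WT cells, with a set spread (dispersion 0.05). A log2 difference of 1 was called in 13 of 92 changed genes (14.1%), and one of 2 in 105 of 108 (97.2%). Far fewer genes were changed there than were called in the real data.

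Named members are all those called in a doxorubicin comparison, the 10 most abundant, the 3 with the smallest p where none was called, and those said to be named after their values were seen. Differences are dox minus control, or KO or OE minus WT. Alternatives were another scaling, pseudocount, filter, set of libraries, replicate block and voom; leaving out the libraries with over 10000 TPM of SNORD RNA was added after the data were seen.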

Additional observations from a re-analysis of the deposited data

How the results depend on the processing

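Member counts under other settings were as follows. In WT cells (15 called), 31 were called with only the groups compared in the fit, 3 rescaled, and 4 to 16 without single libraries (7 without WT dox a, 4 without WT dox b and 4 without WT control a). In KO cells (9 called), 3 were called rescaled, 4 by voom on recovered reads, and 5 to 28 without single libraries (28 without KO dox a and 5 without KO control b). In OE cells (11 called), 25 were called with only the groups compared, 0 rescaled, 6 by voom, 3 without the 3 libraries rich in SNORD RNA, 1 rescaled without them, and 2 to 15 without single libraries (6 without OE dox b, 6 without OE control a and 2 without OE control b). For OE against WT dox (0 called), 8 were called with only the groups compared. For OE against WT control (0 called), 1 was called rescaled without the 3 libraries. Without single libraries, 0 members were called in the 6 comparisons other than doxorubicin. The other settings stayed within 1.5 times of these counts. They are given here without the share of all genes called, so they describe the settings and are no result on the members. Leaving out the 3 libraries was chosen after the data were seen and leaves 1 library in KO dox, OE dox and OE control. A group left with 1 library, here or without a single library, is assumed to vary like the other groups; the cause of the changes was not tested. For 66 results on members and partner genes called in a doxorubicin comparison (as deposited or rescaled) and their 1442 alternative values, 1165 kept direction and call, 266 kept direction and lost the call, 11 gained it, and 0 turned direction. Of the 27 uncalled doxorubicin differences of the 10 most abundant members, 20 changed sign in at least 1 alternative (54 of 594 values), SNORA73A and SNORA73B among them. The 18 differences with the smallest p in the 6 other comparisons changed sign in 0 of 396. They were picked for a small p, and the alternatives reuse the same libraries, so a steady sign is no test of them. The same holds for the 66 results picked because they were called.

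With the replicate letter as a block, 17 members were called in WT, 12 in KO and 13 in OE cells, and 0 in the 6 other comparisons. The labels do not say whether the letters mark a batch. The differences between a and b correlated between groups from -0.389 (WT control and KO control) to 0.810 (KO dox and OE dox), with 0.500 for KO control and OE control.

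With 2 libraries a group and as few as 3 reads behind a value, small differences in low members could not be seen. In the simulated data most log2 differences of 1 were missed too, so a member without a call was not shown to be unchanged. Reads of a mature RNA cannot be told apart from reads of a host that spans it.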
